A study of Homo sapiens with 12 samples.

Results

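The genes described here are 10 that make, use, sense or counteract succinate and succinyl-CoA. They are SDHA, SDHB, SDHC and SDHD, which encode succinate dehydrogenase, SUCLG1, SUCLG2 and SUCLA2, which encode succinyl-CoA ligase, OGDH, SUCNR1 and SIRT5. They were chosen by name and not by a measured value, though earlier results of these data were known. Each gene was taken as its RefSeq body on GRCh38 with 10 kb either side, called its window, and all 10 were found among 20037 protein-coding genes on 24 chromosomes. The measurements were the peaks of 8 CUT&Tag libraries that overlap these windows.

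In CUT&Tag, antibodies tether a transposase to the chromatin they bind, and the DNA it cuts out is sequenced. The cells were HepG2/C3A, a clone of the HepG2 hepatocellular carcinoma line, either left as control or given 10 mM sodium succinate in water, and all were taken at 48 h. The antibodies were a pan-succinyllysine antibody (Ksu), which binds succinylated lysine on any protein, and one against H3K27me3, trimethylated histone H3 at repressed genes. Each of the 4 groups had 2 biological replicates, which are named control 1, control 2, succinate 1 and succinate 2. Where a pair of values is given for a group, replicate 1 comes first. The labels do not say whether the replicates were separate cultures, so any p-value covers only the spread between these libraries. Only the series' design text names the control as vehicle, and all groups were the same line, with no change of genotype. The 4 IgG samples were not analysed here.

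In the tricarboxylic acid cycle, 2-oxoglutarate dehydrogenase makes succinyl-CoA, succinyl-CoA ligase turns it into succinate while making GTP or ATP, and succinate dehydrogenase oxidises succinate to fumarate and feeds electrons to the respiratory chain. Succinyl-CoA can react with lysine side chains, and SIRT5 removes succinyl groups from lysine. Succinate that leaves the cell is sensed by the receptor SUCNR1, and accumulated succinate is a known inhibitor of dioxygenases that use 2-oxoglutarate, among them histone demethylases.

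Sequences are shown for 3 gene starts. At SDHB the promoter lay under the one H3K27me3 peak that reached a start among these genes. At SDHD a Ksu peak covered the start. SIRT5 is shown because it shares a motif with SDHD. They are from RefSeq, GRCh38.p14, written 5′ to 3′ on the strand of the gene. SDHB is the whole of the 250 bases before its start (chr1:17054033-17054282, minus strand), with the ETS-type match CCGGAAG in capitals. SDHD is the 116 bases between TIMM8B and SDHD (chr11:112086757-112086872, plus strand). SIRT5 is a stretch of 30 bases (chr6:13574451-13574480, plus strand). In SDHD and SIRT5 the capitals are GCGCA followed at once by its reverse complement, the palindromic motif of NRF1, an activator of respiratory-chain genes.
SDHB: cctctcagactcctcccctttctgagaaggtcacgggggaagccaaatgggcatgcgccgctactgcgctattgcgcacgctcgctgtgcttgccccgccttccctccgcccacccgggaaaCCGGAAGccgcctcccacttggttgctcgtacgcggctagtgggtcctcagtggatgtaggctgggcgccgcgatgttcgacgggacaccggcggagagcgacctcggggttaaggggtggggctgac
SDHD: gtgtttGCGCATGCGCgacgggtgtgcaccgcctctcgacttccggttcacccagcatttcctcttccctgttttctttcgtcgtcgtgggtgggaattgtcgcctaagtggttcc
SIRT5: ggtccgcggtGCGCATGCGCggcccggcct

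The RefSeq promoter table held 8 of the 10 genes, with SIRT5 entered for 2 starts. SDHC and OGDH were not matched. The NRF1 palindrome was found in the 250 bases before the start of 2 of the 8, SDHD and SIRT5, and in 1.28% of 22199 promoters of that length. Its first base lay 110 bases before the SDHD start, and 140 and 68 bases before the starts of SIRT5. CCGGAAG was in 2 of 8, SDHB on the same strand and SDHD on the opposite strand, against 10.7% of all promoters. The SDHB match began 128 bases before the start, and the SDHD match, 77 bases before it, did not overlap the NRF1 motif. The SP1 motif GGGCGG was in 4 of 8 against 53.7%, and TATAAA in 0 of 8 against 9.0%. All motifs were searched on both strands, and a match describes letters, not binding. The number of CpG dinucleotides was 35 at SDHA, 24 at SDHB and SDHD, 25 at SUCLA2, 18 at SUCLG2 and 11 at SUCLG1, beside a median of 16. SIRT5 had 28 and 36, and SUCNR1 had 0.

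The libraries differed in number and size of peaks, and this touches every value that follows. Ksu peaks numbered 76702 in control 1, 382019 in control 2, 294568 in succinate 1 and 629903 in succinate 2. They covered 2.63%, 6.07%, 6.16% and 10.8% of the chromosomes in that order. Replicates of a group thus differed widely from each other. The lowest total signal of any Ksu peak, counted in the smallest step of signal in its library, was 8977 and 4247 in the replicate 1 libraries and 76 and 49 in the replicate 2 libraries. Control 1 and succinate 2 stood apart, with the fewest and the most peaks. H3K27me3 peaks numbered 5531 to 19133 and covered 3.83% to 6.51% of the chromosomes. For this reason the main measure is relative Ksu cover, the percent of a window under peaks divided by the percent of the chromosomes under peaks in the same library. A value of 1 means that the window is covered as the genome is. With 2 libraries against 2 there are 6 arrangements of the labels, so an exact permutation test cannot give a p below 0.333. A gene is here called higher when both succinate values exceed both control values.

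Ksu peaks overlapped the windows of 6 of the 10 genes in control 1 and of all 10 in each of the other 3 libraries, and 97.2% of all windows had a peak in some library. Of all protein-coding gene windows, 46.5% had a peak in control 1, 90.3% in control 2, 90.2% in succinate 1 and 96.6% in succinate 2. The 6 genes found in every library were SDHB, SDHC, SUCLG1, SUCLG2, OGDH and SIRT5, beside 44.6% of all windows. The number of Ksu peaks in the 10 windows was 15 in control 1, 60 in control 2, 72 in succinate 1 and 213 in succinate 2. These peaks covered 1.70% and 2.95% of the windows in the controls and 5.10% and 12.7% in succinate. The percent covered was higher in both succinate libraries at 9 of 10 genes, all but SUCNR1, and at 60.3% of all windows. No member was lower in both, against 0.449% of all windows.

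Scaled to each library's own cover, the difference was smaller. Pooled over the 10 windows, relative cover was 0.648 and 0.486 in the controls and 0.828 and 1.18 in succinate, so the groups did not overlap. The log2 difference between groups was 0.82, with a pooled replicate SD of 0.33. On leaving out 1 library it ranged from 0.56 without succinate 2 to 1.07 without succinate 1. With gene windows in place of chromosomes it was 0.54. Relative cover was higher at 6 genes, SDHA, SDHC, SDHD, SUCLA2, OGDH and SIRT5, and at 43.9% of all windows. SDHB, SUCLG1, SUCLG2 and SUCNR1 had overlapping groups, and no gene was lower in both, against 4.96% of all windows. Leaving out 1 library loosens that criterion for every window. The count was then 9 without control 1 (56.8% of all windows), 7 without control 2 (64.2%), 9 without succinate 1 (62.4%) and 6 without succinate 2 (52%).

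**Figure D1:**
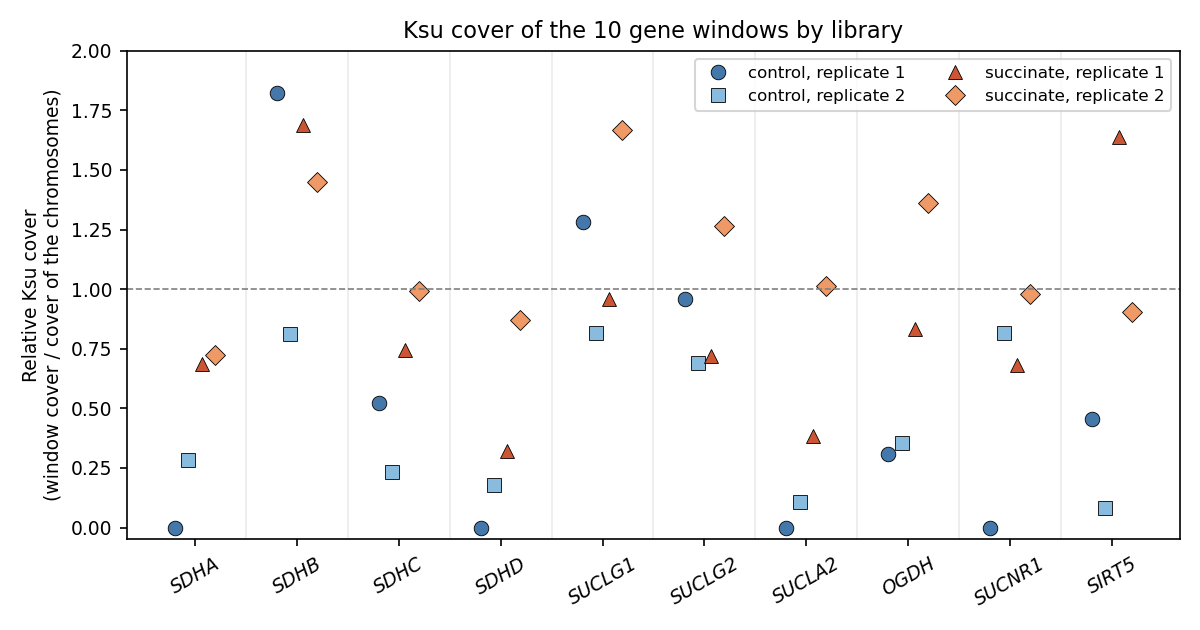
Relative Ksu cover of each gene window (vertical axis, window cover over chromosome cover) in the 4 Ksu libraries, 1 symbol per library, with a dashed line at 1. Both succinate symbols lie above both control symbols at SDHA, SDHC, SDHD, SUCLA2, OGDH and SIRT5, and the groups overlap at the other genes.

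Gene windows as a whole were also more covered, relative to the chromosomes, in succinate. Their cover was 0.903 and 0.90 times that of the chromosomes in the controls and 1.08 and 1.11 times in succinate. The succinate minus control difference in relative cover was positive at 10 of 10 genes and at 76.7% of all windows. Its median was 0.499 over the 10 genes and 0.387 over all windows, and 7 of the 10 lay above the latter. Measured against gene windows in place of chromosomes, 8 of 10 differences were positive against 69.5% of all, with medians of 0.408 and 0.266. The same scaling kept 6 genes higher in both succinate libraries, beside 35.8% of all windows. With all peaks and libraries, SIRT5 had the largest difference of the 10, at the 88.3rd percentile of all windows, and SUCLG2 the smallest, at the 33.3rd. This rank of SIRT5 did not hold throughout. With equal numbers of peaks SUCNR1 (2.21) and SUCLG1 (1.44) exceeded it (1.38). Without succinate 1 OGDH (1.03), SUCLA2 (0.959) and SDHD (0.779) did (0.636), and without control 2 SUCNR1 (0.831) did (0.816). With 50 kb either side SDHD (0.798), SDHA (0.707), SDHC (0.695) and OGDH (0.677) were above SIRT5 (0.571). With a common floor of total signal for all libraries SUCNR1 (2.68) and SUCLA2 (2.24) were above it (1.95). As a ratio of group means SUCLA2 (12.9), SDHD (6.65) and SDHA (5.00) were above SIRT5 (4.74).

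**Figure D2:**
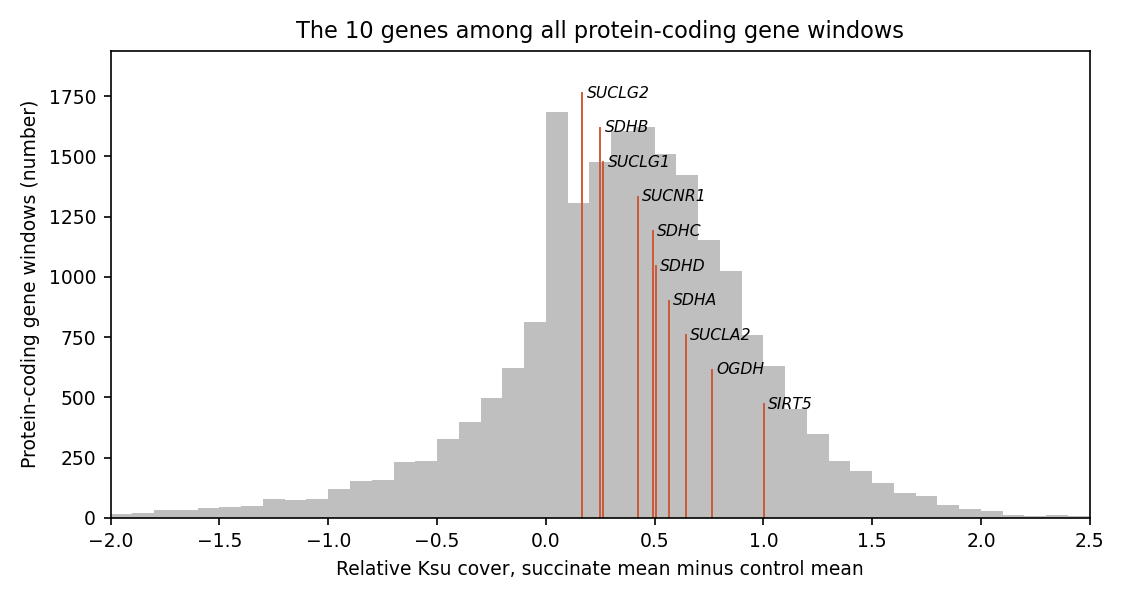
Histogram of the succinate minus control difference in relative Ksu cover (horizontal axis) over protein-coding gene windows (vertical axis, number of windows), with a line for each of the 10 genes. The lines run from 0.168 at SUCLG2 to 1.00 at SIRT5 and all lie inside the body of the distribution; line heights are for legibility only.

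With the same number of peaks taken from every library, those of highest total signal, the windows with a Ksu peak were 6 and 3 of 10 in the controls and 8 and 9 of 10 in succinate. The background was 46.5% and 40.9% in the controls and 59% and 59.6% in succinate. Relative cover was then higher in both succinate libraries at 4 genes, SUCLA2, OGDH, SUCNR1 and SIRT5, beside 22.8% of all windows. None was lower in both, against 5.58%. SDHA, SDHC and SDHD no longer met that criterion. SDHA had no peak left in succinate 2, and SDHD had none in succinate 1.

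By mean relative cover over the 4 libraries the genes ran in the order SDHB (1.44), SUCLG1 (1.18), SUCLG2 (0.908), SIRT5 (0.770), OGDH (0.715), SDHC (0.623), SUCNR1 (0.620), SDHA (0.423), SUCLA2 (0.376) and SDHD (0.342). No neighbours in this order differed by more than the larger of their pooled replicate SDs. The order depended on the group. In control the highest means were SDHB at 1.32, SUCLG1 at 1.05 and SUCLG2 at 0.823, with SIRT5 at 0.268. In succinate they were SDHB at 1.57, SUCLG1 at 1.31 and SIRT5 at 1.27, with OGDH at 1.10 and SUCLG2 at 0.992.

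SDHA encodes the flavoprotein subunit that binds and oxidises succinate (chr5:218320-268746). Its window held 0 and 3 Ksu peaks in the controls and 3 and 12 in succinate. Relative cover was 0 in control 1, 0.282 in control 2, 0.686 in succinate 1 and 0.724 in succinate 2, so the succinate libraries lay close together and above both controls. The difference was 0.564, and the pooled replicate SD was 0.142 (n = 2 per group, p = 0.333 by exact permutation). In succinate 1 every peak lay in the gene body. The widest, each of 1260 bp, were chr5:234237-235496, where succinate 2 also had a peak, and chr5:239960-241219, seen in succinate 1 only. The window also takes in parts of CCDC127 and PDCD6.

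SDHB is the iron-sulfur subunit that passes electrons on from SDHA (chr1:17018722-17054032). Its Ksu peaks numbered 2, 5, 11 and 17 in the order control 1, control 2, succinate 1 and succinate 2. Relative cover was 1.82, 0.813, 1.69 and 1.45, with control 1 the highest and control 2 the lowest, so the groups overlapped. The difference of 0.251 was smaller than the replicate SD, 0.518 pooled (p = 1 by exact permutation), and it was -0.253 without control 2 and -0.025 when scaled to all gene windows. As unscaled percent of the window, SDHB read 4.79 and 4.93 in the controls and 10.4 and 15.6 in succinate. It had the highest relative cover of the 10 genes in control 1 and in succinate 1, and its window shares bases with ATP13A2.

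SDHC and SDHD anchor the complex in the inner mitochondrial membrane and hold its ubiquinone site. SDHC (chr1:161314381-161363206) had relative cover of 0.522 and 0.231 in the controls and 0.746 and 0.993 in succinate. All 4 values were below 1, and the groups did not overlap (difference 0.493, pooled replicate SD 0.191, p = 0.333 by exact permutation). Its window held 1 and 2 Ksu peaks in control libraries and 4 and 13 in succinate, and CFAP126 overlaps it.

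SDHD (chr11:112086873-112095794), the shortest of the 10 genes, had 0 and 1 Ksu peaks in the controls and 2 and 5 in succinate. Relative cover was 0 and 0.179 in the controls and 0.322 and 0.869 in succinate, a difference of 0.506, where the pooled replicate SD was 0.288 (p = 0.333 by exact permutation). Succinate 1 had no Ksu base in the gene body, where control 2 covered 3.52% and succinate 2 covered 14%, so the replicates placed their peaks differently. On the body alone the groups overlapped, so SDHD met the criterion through the flank peaks of succinate 1. The window overlaps TIMM8B and NKAPD1.

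**Figure D3:**
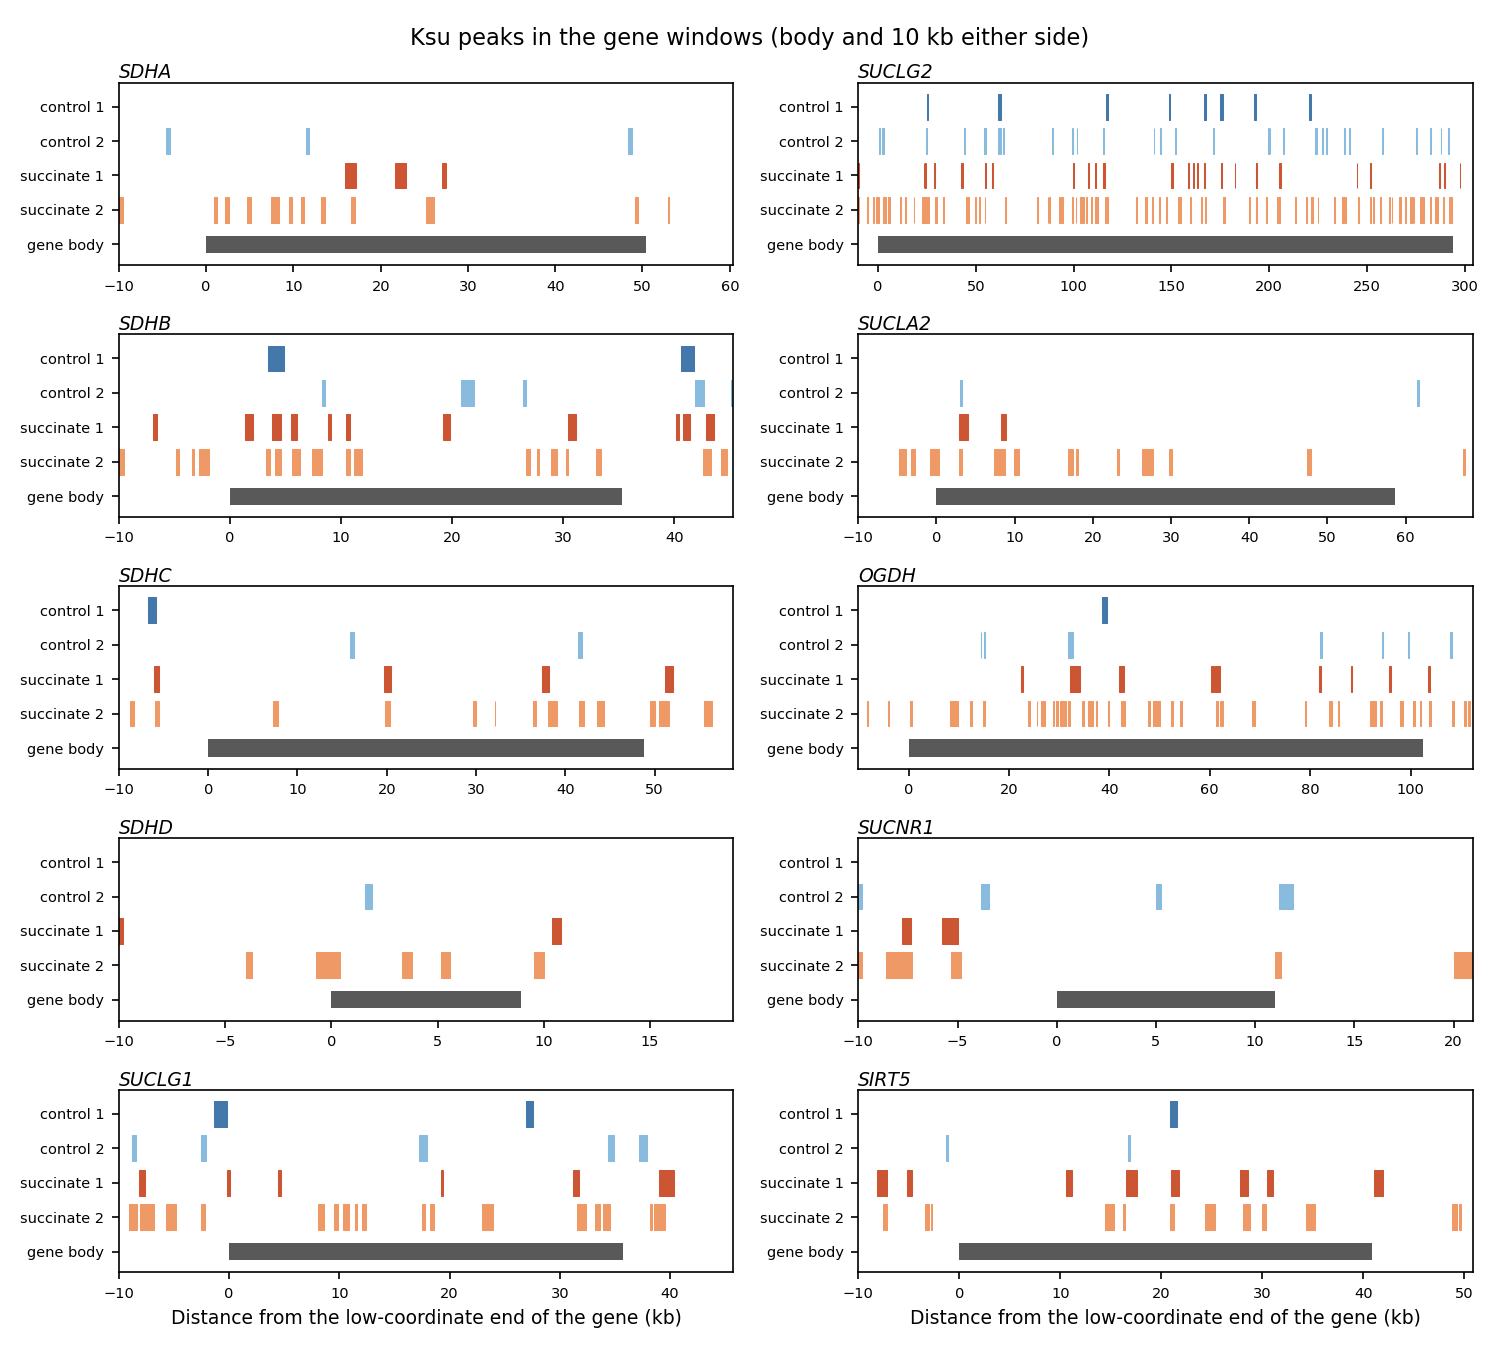
Ksu peaks (coloured blocks, 1 row per library) along each gene window, with the gene body as a grey bar; the horizontal axis is the distance in kb from the low-coordinate end of the gene. Succinate 2 has the most peaks in every window, and control 1 has none at SDHA, SDHD, SUCLA2 and SUCNR1.

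Succinyl-CoA ligase is a dimer of the alpha subunit SUCLG1 with a beta subunit, SUCLG2 for the GTP-forming and SUCLA2 for the ATP-forming enzyme. SUCLG1 (chr2:84423528-84459280) had relative cover of 1.28 and 0.814 in the controls and 0.957 and 1.67 in succinate. The succinate values lay on both sides of control 1, and the difference of 0.264 was below the replicate SD, 0.425 pooled (p = 0.667 by exact permutation). It was -0.091 without succinate 2. More of the flanks than of the gene body was covered in every library, 6.02% and 7.65% of the flanks in the controls and 10.2% and 21.9% in succinate against 1.89%, 3.42%, 3.50% and 15.7% of the body. DNAH6, a dynein gene, overlaps this window.

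SUCLG2 (chr3:67360460-67654612) is the longest of the 10 genes and held the most Ksu peaks in every library, 8 and 29 in the controls and 25 and 80 in succinate. Relative cover was 0.957, 0.690, 0.718 and 1.27 in the order control 1, control 2, succinate 1 and succinate 2, so only succinate 2 was above both controls. The difference was 0.168 and the pooled replicate SD 0.304 (p = 0.667 by exact permutation), and it was -0.105 without succinate 2. Without the SUCLG2 window, the log2 difference over the pooled windows was 1.25 in place of 0.82.

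SUCLA2, the other beta subunit (chr13:47942656-48001273), had 0 and 2 Ksu peaks in the controls and 2 and 14 in succinate. Relative cover was 0 and 0.108 in the controls and 0.383 and 1.01 in succinate. The groups did not overlap, and the difference was 0.644 and the pooled replicate SD 0.320 (p = 0.333 by exact permutation). The difference between the 2 beta subunits in their response was not tested.

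OGDH, the enzyme that forms succinyl-CoA from 2-oxoglutarate (chr7:44606627-44709066), had 1 and 7 Ksu peaks in the controls and 9 and 38 in succinate. Relative cover was 0.309 and 0.356 in control, which are close, and 0.833 and 1.36 in succinate. The groups did not overlap, with a difference of 0.764 and a pooled replicate SD of 0.265 (p = 0.333 by exact permutation). The widest Ksu peak in any of the 10 windows was here, 1943 bp in the gene body in succinate 1 (chr7:44638766-44640708), wider than 99.6% of the peaks of that library. A peak of control 2 overlapped it, and succinate 2 had peaks on either side but none within it. No other protein-coding gene lies in the OGDH window.

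SUCNR1 (chr3:151873643-151884619), the receptor for extracellular succinate, had Ksu peaks almost only outside its body. Relative cover was 0 and 0.817 in the controls and 0.682 and 0.981 in succinate, so control 2 lay between the succinate libraries (difference 0.423, pooled replicate SD 0.435, p = 0.667 by exact permutation). The gene body held a single peak, in control 2, which covered 2.34% of it, and neither succinate library had one. On the body alone the difference in relative cover was therefore negative, -0.193. Of 7 distinct regions in the window, the 2 seen in both succinate libraries and in no control lay upstream of the start, centred at -7.96 and -5.32 kb from it.

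SIRT5, the mitochondrial desuccinylase (chr6:13574274-13615158), had 1 and 2 Ksu peaks in the controls and 8 and 12 in succinate, and the percent of its window covered was 1.20 and 0.496 in the controls and 10.1 and 9.73 in succinate. Relative cover was 0.455 and 0.0818 in the controls and 1.64 and 0.904 in succinate. Every succinate value was above every control value, and the difference was 1.00 and the pooled replicate SD 0.412 (p = 0.333 by exact permutation). It stayed positive without each library in turn, from 0.636 to 1.37. NOL7 and RANBP9 reach into the window.

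At the level of single regions the libraries shared little. Overlapping Ksu peaks merged over the 4 libraries gave 285 regions in the windows, of which 230 (80.7%) came from 1 library, beside 76.6% of all 1044855 regions. Regions seen in 3 or more libraries numbered 11 (3.86% against 4.76%). Those found in both succinate libraries alone were 23 (8.07% against 5.39%), and those found in both control libraries alone were 1 (0.351% against 0.630%). Peaks of succinate 2 alone made up 158 regions (55.4% against 39.0%).

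Just 2 regions had a peak in all 4 libraries, and both were in the body of SUCLG2 (chr3:67383458-67386044 and chr3:67475402-67478213). Both are chains of overlapping peaks, in which no base lay under a peak of more than 3 libraries in the first and 2 in the second. Of the 11 regions in 3 or more libraries, 6 had a base shared by all the libraries that formed them. SUCLG2 had 3 further regions with peaks in 3 libraries, SDHB had 2, and SDHC, SUCLA2, OGDH and SIRT5 had 1 each. The regions of SDHB were chr1:17021938-17023554, in the body, and chr1:17060537-17062263, upstream of the start. At SUCLA2 the region was chr13:47945473-47946701, and at SIRT5 it was chr6:13595125-13596068, each inside the gene. SDHA, SDHD, SUCLG1 and SUCNR1 had none. The reference used here gives gene bodies and starts, so exons and introns were not told apart.

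Few Ksu peaks lay near gene starts. Of the 8 genes with a start in the promoter table, 0 had a Ksu peak within 1 kb in control 1, 1 in control 2, 0 in succinate 1 and 3 in succinate 2. Among 15843 genes the shares were 4.87%, 24.6%, 20.9% and 36.2%. These are below the shares of 2-kb tiles of the chromosomes with a peak, which were 7.38%, 26.7%, 22.8% and 41.8%. In any library 4 of the 8 genes had such a peak, beside 56.2% of all, and each had it in 1 library only. A peak in all 4 libraries was seen at 0 of 8 and at 0.789% of all. At SDHD a peak of 1123 bp in succinate 2 lay across the start (chr11:112086144-112087266) and covers the sequence printed above. In the same library SDHA and SUCLG2 had peaks 874 and 964 bp downstream of the start. SUCLG1 had one 830 bp downstream in control 2, and without succinate 2 it was the only gene of the 4 left.

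H3K27me3 was rare at these genes. SDHB alone had H3K27me3 peaks in its window, 1 in control 1 and 1 in succinate 1, and none in either replicate 2 library. Of all gene windows 33.2% and 18.2% had a peak in control 1 and control 2, and 27.7% and 21.3% in succinate 1 and succinate 2. In any library it was 1 of 10 genes against 35.1%, and in every library 0 against 16.8%. H3K27me3 cover was higher in both succinate libraries at 0 of 10 and 7.62% of all windows, and lower in both at 0 and 1.62%. The SDHB pattern, a peak in both replicate 1 libraries and neither replicate 2 library, followed replicate number and not treatment. It was seen at 5.03% of windows. Counted in steps, the SDHB peaks totalled 58157 in control 1 and 170743 in succinate 1. The lowest total of any H3K27me3 peak was 211123 in control 2 and 330250 in succinate 2. Whether these lowest totals underlie the pattern was not tested.

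The SDHB peak of control 1 was 4969 bp (chr1:17053701-17058669) and ran from just inside the gene across its start and the printed promoter. Its total signal was above that of only 10.3% of the H3K27me3 peaks of its library. The peak of succinate 1 was 5664 bp (chr1:17055178-17060841), began 1.1 kb upstream of the start and left the promoter free. Within 1 kb of the start, 1 of the 8 genes had an H3K27me3 peak in control 1 and 0 in the other libraries. Over all genes the shares were 17% in control 1, 9.18% in control 2, 14% in succinate 1 and 10.9% in succinate 2. In control 2 and succinate 2 the nearest H3K27me3 peak lay 0.940 and 0.886 kb beyond the window. In both it was about 60.4 kb wide, began 10.9 kb from the SDHB start and covered PADI2, a peptidylarginine deiminase gene. H3K27me3 covered 87.9% of the PADI2 body in control 1, in 3 separate peaks, and 100% in the other 3 libraries, so SDHB lay beside H3K27me3 in all 4.

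**Figure D4:**
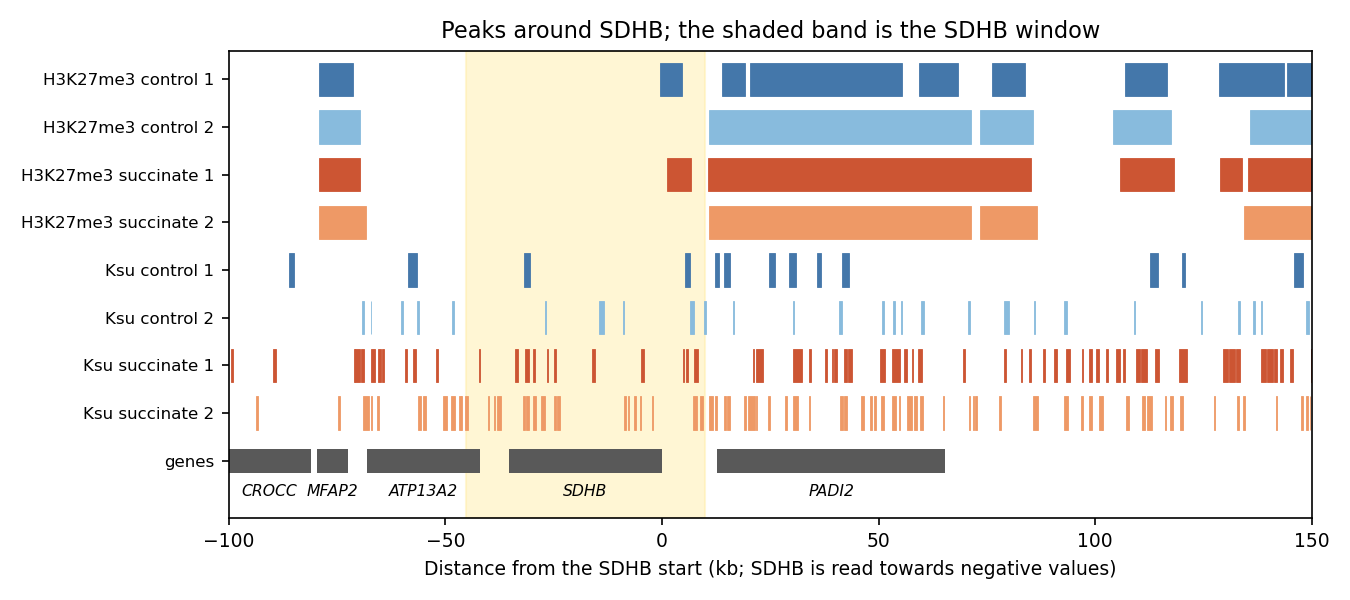
Peaks of all 8 libraries (coloured blocks, 1 row per library) around SDHB, with gene bodies in grey and the SDHB window shaded; the horizontal axis is the distance in kb from the SDHB start. H3K27me3 covers PADI2 wholly in 3 libraries and in 3 separate peaks in control 1, and it enters the SDHB window in control 1 and succinate 1 only.

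The stretch of 7.14 kb under either of these H3K27me3 peaks also held Ksu. Ksu peaks covered 17.4% of it in control 1, 4.27% in control 2, 11.2% in succinate 1 and 0% in succinate 2. The rest of the window was covered 2.92%, 5.03%, 10.3% and 17.9% in the same order. The values inside the stretch rest on 1 Ksu peak in control 1, 1 in control 2 and 2 in succinate 1. Control 1 thus had more Ksu cover inside the stretch than outside through 1 peak. Succinate 2, the library with the most Ksu peaks, had none inside. Ksu and H3K27me3 came from separate libraries, so nothing here shows both on the same molecules.

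The other 9 genes had no H3K27me3 peak in their windows, and distances for all genes are not given here. The nearest peak to the gene body was 23.3 to 42.6 kb away at SDHA over the 4 libraries, 30.6 to 398 kb at SIRT5, 109 to 112 kb at SDHC and 225 to 248.6 kb at OGDH. It was over 300 kb away in each library at SUCLG1 (350 to 362 kb), SUCLG2 (316 to 4069 kb), SUCNR1 (332 to 779 kb), SDHD (368 to 373.5 kb) and SUCLA2 (831 to 2090 kb).

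A list of 30 other genes of succinate and succinyl-CoA metabolism was measured in the same way, and all 30 were found. It holds tricarboxylic acid cycle enzymes, assembly factors of succinate dehydrogenase, succinate and dicarboxylate carriers, enzymes that use succinyl-CoA, and reported writers and erasers of succinyl-lysine. Ksu peaks were in 14, 28, 27 and 30 of their windows in the order control 1, control 2, succinate 1 and succinate 2, close to the shares of all windows (46.5%, 90.3%, 90.2% and 96.6%). Pooled relative cover was 0.732 and 0.767 in the controls and 0.952 and 1.09 in succinate. Relative cover was higher in both succinate libraries at 15 of 30 genes, lower in both at 2 and overlapping at 13, beside the 43.9% and 4.96% of all windows. The median difference was 0.465.

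The highest mean Ksu cover in that list was at SLC13A3, a dicarboxylate transporter of the plasma membrane, at 1.85 times the chromosomes. ALDH5A1, which makes succinate from succinic semialdehyde, followed at 1.59, and SLC13A2, another dicarboxylate transporter, at 1.38. ALDH5A1 read 1.5 and 0.729 in the controls and 1.99 and 2.15 in succinate, without overlap. The groups overlapped at SLC13A3, with 2.18 and 0.682 in the controls and 2.94 and 1.58 in succinate. They also overlapped at SLC13A2, with 2.13 and 0.727 in the controls and 1.25 and 1.39 in succinate. H3K27me3 peaks lay in the windows of 10 of the 30 genes in any library and of 3 in all 4, SLC13A2, SDHAF1 and IDH3G. The shares of all windows were 35.1% and 16.8%, so the list did not hold more than windows in general. At SLC13A2 they covered 66.2% and 36.6% of the window in the controls and 73.7% and 81.2% in succinate. SDHAF1, an assembly factor of succinate dehydrogenase, had 13.1% and 24.2% in the controls and 25.5% and 26.5% in succinate. IDH3G, a subunit of isocitrate dehydrogenase, had 9.42% and 10.5% in the controls and 19.6% and 13.6% in succinate. IDH3B and SLC13A3 had peaks in 3 libraries, and OXCT1, DLST, KAT2A, SLC25A10 and ALAS1 in 1 each.

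As a check of the labelled cell line, 12 genes of liver secreted proteins and 10 regulators of other lineages were counted. H3K27me3 peaks lay in the windows of 1 of the 12 liver genes in each library, and of 9, 5, 6 and 5 of the 10 others in the order control 1, control 2, succinate 1 and succinate 2. Of all windows 33.2%, 18.2%, 27.7% and 21.3% had one. Pseudogenes of SDHA (4), SDHB (1), SDHC (5), SDHD (7), SUCLG2 (4) and SUCLA2 (3) are named in the gene table. How reads that fit both a gene and such a copy were placed is not given in the sources used here, and its part in these values was not tested.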

How the data were processed

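Peaks of 8 CUT&Tag libraries were used as the authors deposited them. Per the submitters' processing notes they were called with SEACR on hg38, and per the file names in stringent mode. Aligner, scaling, control track and threshold are not given in the sources used here. The deposited signal (total and highest per peak) was used to rank peaks within a library. Counted in steps, it was also used to set a common floor across libraries. Read depth is not known. Within each library 100% of highest signals were whole multiples of 1 step (tolerance 0.02). The step was chosen so that nearly all of them would be, so this is not a separate check of it.

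Cover was computed with Python 3.11.15, numpy 2.4.6 and pandas 2.3.3 over windows of RefSeq GRCh38.p14 genes. An overlap of 1 bp counted. Single genes were compared by exact two-sided permutation tests over libraries; values over several genes have no test. Scripts were tested on simulated data. The genes and lists were chosen with earlier results of these data known. Named were all 10 genes, list genes with an H3K27me3 peak or among the 3 highest in mean Ksu cover, regions in 3 or more libraries, each gene's widest peak where described, and neighbours; a region with a neighbour in 1 window is not reported here. Alternatives were peak subsets (top 50%, equal numbers, a common floor, at least 500 bp, merging within 1 kb), other windows, scaling, leaving out each library and a replicate block.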

Additional observations from a re-analysis of the deposited data

How the results depend on the processing

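Of 203 recomputations of 16 results, 10 reversed and 19 moved. The 203 include the replicate block, which by construction leaves the pooled differences and those of each gene unchanged. Single genes were judged on direction alone, and SDHA and SDHD were at 0 with a common floor. The log2 difference of pooled relative cover, 0.82 as reported, was 0.54 when scaled to gene windows and 0.65 with 50 kb either side. It was 1.41 with equal numbers of peaks and 1.25 without SUCLG2, and 0.56 to 1.07 on leaving out each library. The log2 difference of percent covered, 1.85 (pooled SD 0.77), ran from 1.19 to 2.5. A common floor gave neither a value, since a library was then at 0. Genes with a Ksu peak in every library numbered 6, but 2 with the 50% of peaks of highest signal or with equal numbers, 0 with a common floor or at least 5% of the window covered, and 6 to 10 on leaving out each library. Genes with an H3K27me3 peak numbered 1, 0 under the same peak subsets (top 50%, equal numbers, common floor) and 3 with 50 kb either side. Starts with a Ksu peak numbered 4, 2 with the top 50% or equal numbers, 1 with a common floor or with 250 bases before to 50 after the start, 8 within 5 kb, and 1 to 4 on leaving out each library. The shares of all windows or starts under the same alternatives are not given here. These counts of genes and starts therefore cannot be set against a background. Genes higher in both succinate libraries numbered 6, but 5 on the gene body alone and 4 with equal numbers or a common floor. They numbered 7 with the top 50%, and 6 to 9 on leaving out each library. The shares of all windows for the gene body, the common floor and the top 50% are not given here. Reversed differences were SDHB with the top 50% (-0.95), equal numbers (-0.42), a common floor (-0.49), 50 kb either side (-0.18), without control 2 (-0.25) and scaled to gene windows (-0.025), SUCLG2 scaled to gene windows (-0.010) and without succinate 2 (-0.11), SUCLG1 without succinate 2 (-0.091) and SUCNR1 on the gene body (-0.19). On leaving out each library SDHB ran from -0.25 to 0.76, SUCLG1 from -0.091 to 0.62, SUCLG2 from -0.11 to 0.44, SUCNR1 from 0.014 to 0.83, SDHD from 0.23 to 0.78, SUCLA2 from 0.33 to 0.96 and OGDH from 0.50 to 1.03. The cause was not tested. A replicate block cannot move the mean differences of 1.85 and 0.82, but for relative cover the pairs gave 0.35 and 1.28 (SD 0.66, beside the pooled SD of 0.33). Same-numbered libraries deviated together (correlation 0.214 for Ksu and 0.477 for H3K27me3 over gene windows), but with 2 pairs this does not establish pairing. Scaling to gene windows, unscaled cover and leaving out SDHB or SUCLG2 were chosen after seeing the data. Peak lists carry no read counts, so counting error could not be given.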
